A study of Mus musculus with 13 samples.

Results

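Conventional CD4 T cells were described here as they lay among the dissociated cells of colon tumors and of the mucosa beside them. A barcode was taken as a retained cell if it held at least 500 UMIs (unique molecular identifiers, each standing for 1 captured transcript), at least 200 genes and under 25% mitochondrial UMIs. It was counted as a conventional CD4 T cell if Cd3d, Cd3e and Cd3g together had at least 2 UMIs, Cd4 had at least 1, and Foxp3, Cd8a, Trdc, Il17a and Cd79a had none. This rule found 1823 cells among 118892 retained barcodes, or 1.53%, of which 1677 came from tumors and 146 from mucosa. The cells were selected on the UMIs of the 9 genes of that rule, so the levels of these genes are descriptions. Of the 9, 4 had enough UMIs to enter the fit between tissues with all other genes; none was called, and nothing is read from it.

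The series held 13 droplet libraries, 10 from colon tumors and 3 from adjacent mucosa. All came from C57BL/6J mice labelled ApcMin/+; p16cis/cis, so tumors and mucosa alike carried the Apc mutation and the engineered p16 epimutation (methylation driven onto the p16 promoter), and all mice had a diet supplemented with methyl donors. Animal codes tied the libraries to 3 mice: mouse A (24 weeks, tumors 5 to 8 and mucosa 2), mouse B (23 weeks, tumors 9 and 10 and mucosa 3) and mouse C (20 weeks, tumors 1 to 4 and mucosa 1). No mouse without the epimutation or on another diet was compared here. Per the labels, mucosa was dissociated with EDTA and TrypLE and tumors with an enzymatic tumor kit, so tissue and protocol cannot be told apart.

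CD4 T cells recognise peptides on MHC class II and act mainly through what they secrete and display. Helper subsets are set by lineage factors: T-bet for Th1 cells, which secrete interferon gamma, GATA3 for Th2, and BCL6 for the follicular helpers. Regulatory T cells, marked by FOXP3, restrain the other T cells and share several of their activation receptors. In the gut most CD4 T cells lie in the lamina propria, while naive cells pass between blood and lymphoid tissue, guided in part by the chemokine receptor CCR7.

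Tumors gave 63 to 279 of these cells per library, and the mucosae gave 81, 20 and 45 (mucosa 1, 2 and 3). Their median depth was 3180 to 4959 UMIs in tumors and 1551 to 3696 in mucosa. Levels are given in CPM, the UMIs of a gene per 1000000 UMIs of the summed cells of a library. In mucosa 2 the cells held only 40466 UMIs in all, so that 1 UMI there stood for 24.7 CPM. Whole libraries held 57221300 to 116133079 UMIs. Of 135282 barcode sequences 2284 occurred in more than 1 library, but none of them marked a conventional CD4 T cell in both. The labels give 7 of 13 libraries as female, yet each library held 2280 to 3985 UMIs of the Y-linked Ddx3y and all of them together held 67 UMIs of Xist. Sex was therefore not used.

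Some of the cells carried RNA of other cell types. Mixed barcodes, with at least 1% of their UMIs in epithelial, neutrophil or monocyte and macrophage genes, numbered 116 of 1677 in tumors and 9 of 146 in mucosa. They held 0 to 27.2% of the cells' UMIs in the tumor libraries, and 20.1%, 13.9% and 59.0% in mucosa 1, 2 and 3. The kind of RNA differed: S100a8, a neutrophil gene, was at 31.1 to 2980 CPM in the cells of tumors, and the epithelial list summed to 6800 to 15100 CPM in those of mucosa against 104 to 2810 in tumors. The gene counts of each comparison, and the counts of most lists, are therefore also given without these barcodes, a choice made after seeing the data; shares of cells with a UMI of a state gene were not recomputed so. The fits need 20 cells per library, and mucosa 2 then falls to 18 and leaves them.

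At the edge of the rule, exactly 1 UMI of Cd4 was found in 994 cells from tumors and 105 from mucosa, and exactly 2 of Cd3 in 56 and 6. Just outside it lay 2561 tumor and 1478 mucosa barcodes that met every other condition but had no Cd4 UMI, and 47 and 8 with 1 Cd3 UMI.

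Cd6, Cd28, Tcf7 and Lef1, the proposed markers that the rule did not use, marked these cells as T cells, but did not set them apart from all other T cells. In the tumor libraries the cells had 183 ± 36.6 CPM of Cd6 (SD, n = 10), 201 ± 31.3 of the costimulatory receptor Cd28, 63.7 ± 27.2 of Tcf7 and 54.8 ± 13.9 of Lef1, the last 2 being transcription factors of naive and memory T cells. Barcodes that were not T cells had 0.667 ± 0.22, 5.35 ± 1.65, 9.39 ± 1.62 and 12.7 ± 4.4 CPM of the same genes. Foxp3-positive CD4 T cells had 166 ± 45.7 CPM of Cd6, 188 ± 40.9 of Cd28, 15.1 ± 15.5 of Tcf7 and 30.5 ± 14.9 of Lef1, and CD8 T cells 104 ± 34.5, 133 ± 51.7, 124 ± 56.6 and 72.8 ± 47. Cd40lg, the helper ligand that licenses B cells and dendritic cells, stood at 19.7 ± 9.93 CPM in the conventional cells, 2.72 ± 4.96 in Foxp3-positive cells and 0.586 ± 1.03 in CD8 T cells. Cd4 was at 306 ± 46.8 CPM and Cd8b1 at 4.74 ± 2.54, against 630 ± 80.4 of Cd8b1 in CD8 T cells, but Cd4 was required of the former and Cd8b1 of the latter, so these values check nothing. The regulatory gene Ikzf2 reached from 14.3 to 194 CPM in the cells, which a Foxp3 count of 0 does not keep out, and from 316 to 993 in those with a Foxp3 UMI. How many regulatory cells without a captured Foxp3 transcript the rule lets in was not tested.

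Conventional CD4 T cells made up far more of the T cells in tumors than in mucosa. Among T cell barcodes (at least 2 Cd3 UMIs and no Cd79a) their share was 18.3% at the lowest, 23% at the median and 30.5% at the highest in tumors, and 5.81%, 1.44% and 2.19% in mucosa 1, 2 and 3. The shares did not overlap, and 10 of 10 tumors lay above the mucosa of their own mouse. Mouse A gave a difference of 24.5 percentage points, mouse B of 20.2 and mouse C of 16.2. Their mean was 20.3, with p = 0.0133 by a two-sided exact permutation test within mice, the smallest p its 75 assignments allow, and 0.04 after Benjamini-Hochberg adjustment over 3 shares. With every barcode thinned to 1000 UMIs the difference was 9.24 points, with at least 2 Cd4 UMIs required of a cell it was 8.79, and without mixed barcodes and barcodes with doublet scores it was 20.2. The T cell barcodes themselves were 7071 of 93871 retained barcodes in tumors and 4834 of 25021 in mucosa. Those with a Trdc UMI and no Cd4 UMI numbered 25 to 80 of 319 to 990 per tumor library. In mucosa 1, 2 and 3 they numbered 396 of 1394, 358 of 1386 and 534 of 2054. Dissociation differed with tissue, and its part in this share was not tested.

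Among all retained barcodes the share ran from 0.849% to 3.15% in tumors, with a median of 1.78%, and was 1.56%, 0.187% and 0.492% in the mucosae. Here the groups overlapped, 9 of 10 tumors lay above their own mucosa, and the mean difference of 1.09 points did not pass (exact permutation p = 0.0533, adjusted 0.08). Mice A and B gave 1.59 and 1.55 points, but mouse C only 0.131. Thinned to 1000 UMIs, the mean difference was 0.263 points, and with at least 2 Cd4 UMIs 0.53. Among CD4 T cells, that is with Foxp3 or Il17a allowed, the conventional cells were 65.6% to 82.1% in tumors and 86.2%, 76.9% and 76.3% in mucosa, a difference of -6.49 points that did not pass either (exact permutation p = 0.12, adjusted 0.12). It was -1.4 points when thinned to 1000 UMIs, and -3.29 without mouse C and -10.1 without mouse A.

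**Figure D1:**
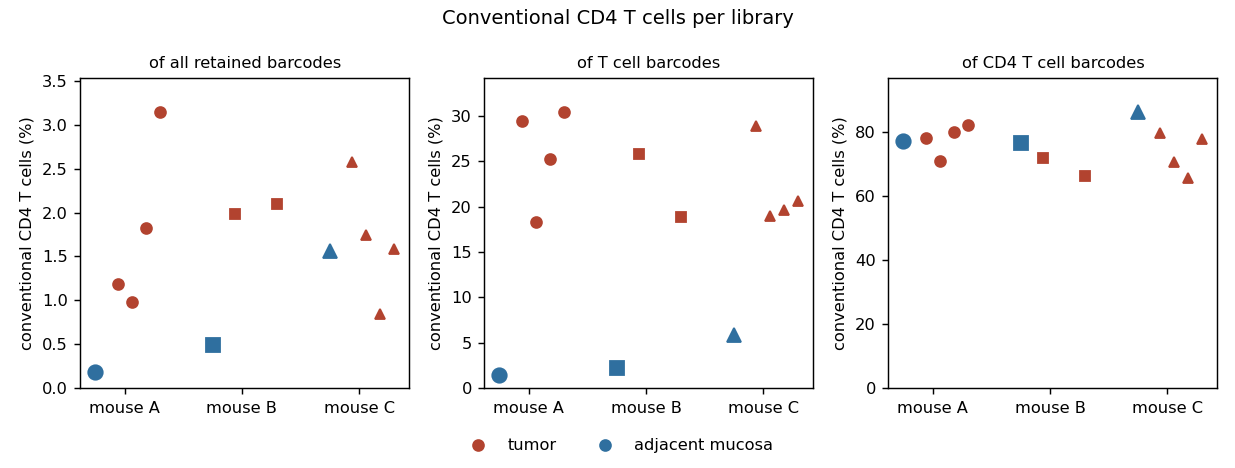
Share of conventional CD4 T cells (%) per library in mice A, B and C, of all retained barcodes (left), of T cell barcodes (middle) and of CD4 T cell barcodes (right); each point is 1 library, red for tumors and blue for mucosa. In the middle panel every tumor sits at 18.3% or above and every mucosa at 5.81% or below, while in the other panels the tissues overlap.

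Conventional CD4 T cells of tumors and mucosa also differed in what they expressed. Their UMIs were summed per library and compared with edgeR's quasi-likelihood test over 7963 genes, with an adjusted p under 0.05 as the threshold. In tumors 815 genes (10.2% of those tested) were higher and 693 (8.7%) lower, 18.9% in either direction, and the libraries of the tissues did not overlap at 15.4% of genes. The median log2 difference of all genes was 0.07. Without mixed barcodes 325 genes (4.27%) were higher and 179 (2.35%) lower of 7605. Without mucosa 3 the counts were 329 (3.94%) and 220 (2.63%) of 8356, and without mucosa 1 they were 825 (9.69%) and 619 (7.27%) of 8512. With the mouse as a block they were 793 (9.96%) and 586 (7.36%) of 7963, and with each cell thinned to 1000 UMIs 154 (5.4%) and 58 (2.03%) of 2854. These shares are the background of the list counts given below for the same settings. Of the genes of recent activation 14 of 19 were higher and 1 was lower, with a median log2 difference of 2.1. The counts were 12 and 0 without mixed barcodes, 13 of 20 and 0 without mucosa 3, and 8 of 16 and 0 with each cell thinned to 1000 UMIs. Dissociation protocols differed with tissue, and 17 of 27 genes of the dissociation stress and immediate early list were higher and 1 lower (10 and 0 without mixed barcodes, 13 and 0 without mucosa 3, 9 and 1 of 23 when thinned). What the protocols add to the activation genes was not tested.

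Among called genes with no overlap between tissues, at least 20 CPM in tumors and at least 2 times the level of barcodes that were not T cells, the 10 with the largest rise were Klrc2, Nr4a3, Gem, Sv2c, Ramp3, Crem, Klrc1, Irs2, Irf4 and Sik1. Genes more abundant in barcodes that were not T cells, such as S100a8, S100a9 and Il1r2, are left out of that order. So are genes of the rule and ribosomal, mitochondrial, immunoglobulin and predicted genes. The fitted log2 rises of S100a8 and S100a9, 13.56 and 13.95, were larger than those of all 10. That of Il1r2, 5.16, was larger than those of all but Klrc2 (8.25). Nr4a3, an orphan nuclear receptor induced by antigen receptor signaling (chr4:48045153-48086447, GRCm38), was at 64.1, 84.4 and 122 CPM in the tumors (lowest, median and highest) and at 5.04, 0 and 0 in mucosa 1, 2 and 3. With only 2 UMIs in mucosa, the pooled ratio was 31.5-fold with a 95% counting interval of 8.69 to 260. Crem, a transcriptional regulator responsive to cyclic AMP, ran from 207 to 451 CPM in tumors with a median of 311, against 25.2, 24.7 and 14.2 in mucosa. All 10 tumors lay above all mucosae, and the log2 difference was 4.10 (SE 0.33, edgeR adjusted p = 3.46e-08; 4.23e-08 without mixed barcodes).

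Ramp3, a partner protein of the calcitonin receptor-like receptor (chr11:6658521-6677475), was at 202, 327 and 444 CPM at the lowest, median and highest tumor and at 22.7, 24.7 and 14.2 in mucosa. Its log2 difference was 4.19 (SE 0.36, edgeR adjusted p = 6.81e-08; 4.51e-07 without mixed barcodes). Sik1, a kinase induced by cyclic AMP, was at 39.3 to 117 CPM against 7.56, 0 and 3.54, and the insulin receptor substrate Irs2 at 57 to 188 against 7.56, 0 and 10.6. Both passed with and without mixed barcodes and with no overlap between tissues. Irf4, a transcription factor that scales with antigen receptor signal strength (chr13:30749226-30766976), was at 39.3, 57.8 and 68.6 CPM against 7.56, 0 and 0, a pooled ratio of 13 (95% counting interval 4.43 to 63.3). The GTPase gene Gem gave 19.8 (6.76 to 96.4) and Sv2c, known as a synaptic vesicle protein, 20.6 (3.67 to 818) on the same pooled scale.

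Klrc1 and Klrc2, which encode NKG2 receptors of NK and T cells, were also among these 10. They are neighbouring paralogs (chr6:129666015-129678973 and chr6:129647496-129660689), and their counts are uncertain where reads fit both. Klrc2 was at 21.1, 50.3 and 75.2 CPM at the lowest, median and highest tumor and had no UMI in any mucosa. Against a floor of 3 UMIs over the mucosae it was at least 12.1-fold higher (edgeR adjusted p = 0.000286). Klrc1 was at 19.4 to 182 CPM against 10.1, 0 and 3.54, a log2 difference of 3.92 (SE 0.89, edgeR adjusted p = 0.00821) that did not pass without mixed barcodes (log2 difference 3.32, adjusted p = 0.116) or without mucosa 3 (3.48, adjusted p = 0.107).

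Among the 10 genes with the largest fall in tumors under the same limits, Tespa1 and Rinl had the highest mucosa levels. Tespa1, a thymocyte gene needed for antigen receptor signaling (chr10:130322870-130364111), was at 4.93, 16.4 and 23.3 CPM at the lowest, median and highest tumor and at 95.8, 148 and 31.9 in mucosa. Its log2 difference was -2.06 (SE 0.37, edgeR adjusted p = 0.000543; 8.73e-05 without mixed barcodes). Rinl, a Ras and Rab interactor-like gene (chr7:28788969-28798963), was at 48.7, 72.7 and 105 CPM against 227, 247 and 145, with a log2 difference of -1.25 (SE 0.23, edgeR adjusted p = 0.000623). Every mucosa lay above every tumor for both. Without mucosa 1 neither passed, at log2 differences of -1.38 and -0.86 (adjusted p = 0.0846 and 0.0503).

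The other 8 of the genes with the largest fall were at low levels. Mrm3, Etfbkmt, Papolg and Prmt3 had tumor means of 2.93 to 7.27 CPM, against 20.4 to 33.1 in mucosa, where 1 or 2 UMIs of mucosa 2 weigh heavily. These 4 had too few UMIs to be tested without mixed barcodes and lost their call without mucosa 3 (adjusted p = 0.066 to 0.182), and Etfbkmt also with the mouse as a block (0.072). Ddx28, an RNA helicase gene, and Thap3 passed both ways, with log2 differences of -1.58 (SE 0.39) and -1.23 (SE 0.35), but not without mucosa 1 (adjusted p = 0.154 and 0.322). Zfp688 and Tmx2 did not pass without mixed barcodes, where mucosa 2 also left the fit (adjusted p = 0.118 and 0.473). With mucosa 2 kept at 15 cells or more, Zfp688 passed and Tmx2 did not (adjusted p = 0.167).

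For the same genes, CD8 T cells, which the rule leaves out, gave the values that follow, and the difference between the populations was not tested. Crem stood in them at 79.3 to 198 CPM in 8 tumors and at 5.12 to 14.1 in the mucosae. Tespa1 was at 13.2 to 25.6 CPM in tumor and at 78.2 to 107 in mucosa CD8 T cells. Ramp3 was at 9.91, 53.3 and 138 CPM at the lowest, median and highest tumor in CD8 T cells and at 0 to 4.23 in mucosa. Nr4a3 was at 43.1 to 135 CPM in tumor and 0 to 4.23 in mucosa CD8 T cells. Sik1 was at 21.5 to 76.5 against 0 to 5.86 and Irs2 at 39.7 to 132 against 0 to 10.6. Irf4 was at 16.2 to 80 against 2.11 to 5.12 and Klrc2 at 16.2 to 115 against 10.6 to 15.4. Rinl was lower, at 52.3 to 115 against 189 to 241, and Zfp688 and Thap3 were lower without overlap too. The tissues overlapped at Gem, Sv2c, Klrc1 and the remaining falling genes.

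**Figure D2:**
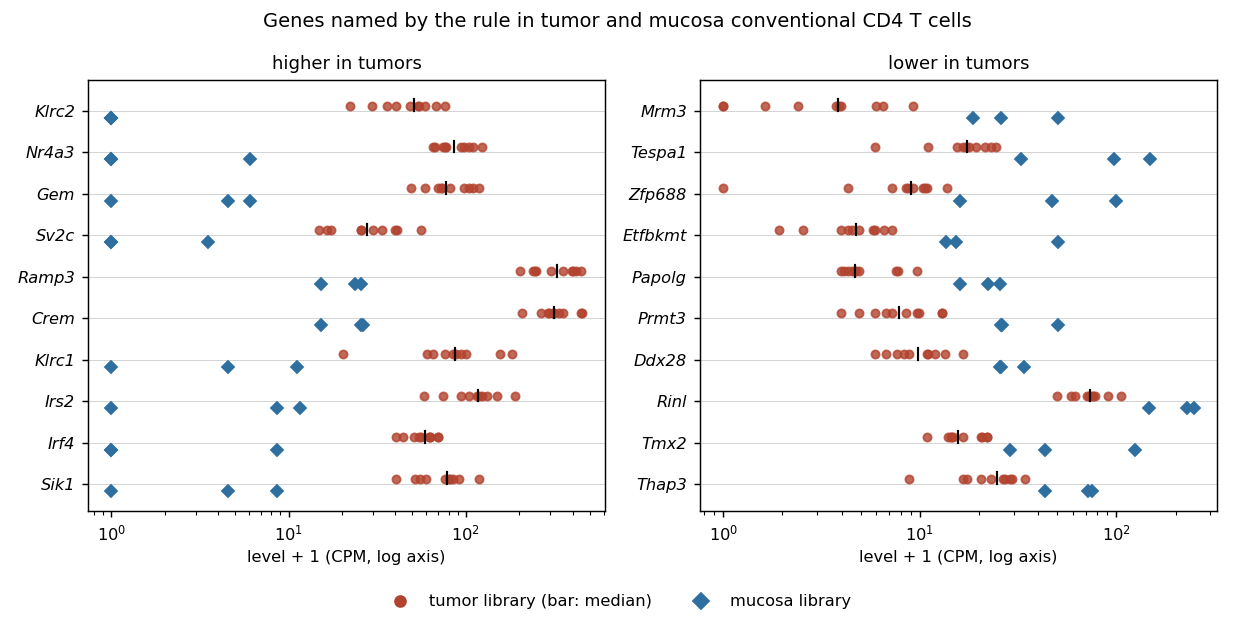
Levels (CPM + 1, log axis) of the 20 genes with the largest rise (left) and fall (right) in conventional CD4 T cells of tumors, among called genes without overlap, at 20 CPM or more in the higher tissue and at least 2 times the level of barcodes that were not T cells; red points are tumor libraries with a bar at their median, blue diamonds mucosa libraries. Genes of the rule and ribosomal, mitochondrial, immunoglobulin and predicted genes are left out. Ramp3 and Crem lie at 202 CPM or above in all 10 tumors and at 25.2 or below in the 3 mucosae.

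Receptors and regulators of activation follow. Tnfrsf9, the costimulatory receptor 4-1BB, was at 167, 242 and 377 CPM at the lowest, median and highest tumor and at 45.4, 0 and 17.7 in mucosa, with no overlap (log2 difference 3.24, SE 0.38, edgeR adjusted p = 5.99e-06). Bhlhe40, a transcription factor of cytokine-producing helper cells, was at 215 to 493 CPM against 75.6, 124 and 42.5. Tnfaip3, a brake on NF-κB, was at 275 to 536 CPM against 80.6, 49.4 and 17.7. Icos, a costimulatory receptor of helper cells, was at 335 to 499 CPM in tumors and at 156, 272 and 70.8 in mucosa, a log2 difference of 1.81 (SE 0.26). All passed with and without mixed barcodes. The 1 gene of the list that was lower, Myc, was at 2.21 to 11.3 CPM against 22.7, 24.7 and 49.6, and did not pass without mixed barcodes (adjusted p = 0.0674).

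Among checkpoint and exhaustion genes 4 of 13 were higher and 2 lower, and without mixed barcodes 2 and 2. Ctla4, the inhibitory receptor that competes with CD28, led them with 323, 403 and 608 CPM at the lowest, median and highest tumor against 118, 148 and 53.1 in mucosa. Its log2 difference was 2.33 (SE 0.29, edgeR adjusted p = 7.86e-06; 2.52e-05 without mixed barcodes). Havcr2 (TIM-3) was at 32.1 to 70 CPM against 7.56, 0 and 0, a pooled ratio of 11.8 (95% counting interval 4.01 to 57.4). Tox, a factor of exhausted and follicular T cells, was lower at 2.83 to 23.3 CPM against 55.4, 24.7 and 21.2 (edgeR adjusted p = 0.0063; 0.402 without mucosa 1). The checkpoint receptor Pdcd1, at 14 to 67.2 CPM in tumors and at 32.8, 24.7 and 28.3 in mucosa, did not pass (edgeR adjusted p = 0.554).

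The list of regulatory-associated genes other than Foxp3, which overlaps these, had 6 of 13 higher and none lower (4 and 0 without mixed barcodes). Besides Ctla4 and Tnfrsf9 it holds the costimulatory receptors Tnfrsf18 (GITR), with a log2 difference of 1.1, and Tnfrsf4 (OX40), at 0.9. Tnfrsf4 lost its call without mixed barcodes.

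Among cytokine receptors 8 of 23 were higher and none lower, and 6 and 1 without mixed barcodes. Il1r2, the decoy receptor for interleukin 1, was at 85.5, 146 and 179 CPM at the lowest, median and highest tumor and at 5.04, 0 and 3.54 in mucosa. That is a pooled ratio of 34.2 with a 95% counting interval of 11.7 to 166. As said above, Il1r2 was more abundant in barcodes that were not T cells. The part of their RNA in this ratio was not tested. Il2rb, a chain of the IL-2 and IL-15 receptors, was at 146 to 348 CPM against 58, 98.8 and 70.8 (log2 difference 2.05, SE 0.27). Il7r, the receptor for the survival cytokine IL-7, was at 481 to 735 CPM against 393, 346 and 92.1 (log2 difference 1.34, SE 0.31, edgeR adjusted p = 0.00506). With each cell thinned to 1000 UMIs Il7r did not pass (log2 difference 0.70, edgeR adjusted p = 0.0524). In all 3 the tumors lay above the mucosae.

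Of secreted cytokines 4 of 12 were higher and 1 lower, and 2 of 13 and 1 without mixed barcodes. Tnfsf11 (RANKL), a TNF family ligand, was at 142, 171 and 276 CPM at the lowest, median and highest tumor and at 35.3, 49.4 and 10.6 in mucosa (log2 difference 2.88, SE 0.33, edgeR adjusted p = 2.84e-06). Areg, an epidermal growth factor family ligand linked to tissue repair, was at 274, 352 and 899 CPM against 55.4, 24.7 and 17.7 (log2 difference 3.69, SE 0.55, edgeR adjusted p = 0.000331). The T cell growth factor Il2 went the other way, with 0 to 2.49 CPM in tumors against 15.1, 24.7 and 14.2 (log2 difference -3.10, SE 0.79, edgeR adjusted p = 0.00796). These 3 genes did not overlap between tissues and passed without mixed barcodes too, but Il2 did not pass without mucosa 1 or mucosa 3 (log2 difference -2.99 and -3.25, adjusted p = 0.0639 and 0.0689). Ifng, the Th1 cytokine, did not pass: it ranged from 152 to 1090 CPM in tumors, with tumor 1 the highest, and was at 149, 222 and 74.4 in mucosa (edgeR adjusted p = 0.115).

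Helper programs were read gene by gene. Of the Th17 list 4 of 13 genes were higher and none lower, and 5 and 1 without mixed barcodes. Rora, a nuclear receptor that promotes Th17 cells, was at 245 to 529 CPM in tumors against 113, 272 and 88.5 (log2 difference 1.76, SE 0.26), and Tmem176a was at 350 to 714 against 242, 346 and 166 (log2 difference 1.34, SE 0.26). Ltb4r1, the leukotriene B4 receptor, was at 85.5 to 162 CPM against 7.56, 198 and 3.54, so that mucosa 2 lay above every tumor, and it lost its call without mucosa 1 or mucosa 3 (log2 difference 2.21 and 2.10, adjusted p = 0.0803 and 0.107). Cells with an Il17a UMI were left out by the rule.

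Of Th2 genes Areg and the IL-4 receptor gene Il4ra were higher among 5 tested and none was lower (2 of 6 without mixed barcodes). With each cell thinned to 1000 UMIs 1 of 2 was higher, and Il4ra did not pass (log2 difference 0.97, edgeR adjusted p = 0.48). Gata3, the Th2 factor, was at 14.9 to 34.3 CPM against 45.4, 24.7 and 10.6 (edgeR adjusted p = 0.861). Of Th1 genes 5 of 15 were higher and 1, Il2, lower, but without mixed barcodes, or without mucosa 3, none was higher. Tbx21, which encodes T-bet, was at 16.7 to 31.1 CPM against 7.56, 0 and 21.2 (edgeR adjusted p = 0.085). None of 7 follicular helper genes passed, while with the mouse as a block 1 of 7 was lower, and without mixed barcodes 1 of 10. Bcl6 had 3.93 to 13.4 CPM in tumors and 2.52, 0 and 0 in mucosa and was not tested.

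Of naive and recirculating genes 2 of 17 were higher and 2 lower, and 1 and 3 of 18 without mixed barcodes. Without mucosa 1 the counts were 4 and 0 of 17, against 9.69% and 7.27% of all genes. Klf2, the factor that drives egress receptors, was called lower, at 31.2 to 87 CPM in tumors against 358, 74.1 and 74.4 in mucosa (log2 difference -1.47, SE 0.44, edgeR adjusted p = 0.0316). That call rests on mucosa 1, since without it the log2 difference was 0.15 (adjusted p = 0.863). It was also lost with the mouse as a block (log2 difference -1.25, adjusted p = 0.0556), where no gene of the list was lower. Ccr7 was at 9.86 to 63.4 CPM against 58, 0 and 3.54, with overlap (edgeR adjusted p = 0.838).

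Of antigen receptor and proximal signaling genes 5 of 23 were higher and none lower, and without mixed barcodes none was higher and 2 were lower. With the mouse as a block 6 of 23 were higher and 1 was lower. Without mucosa 3 the count was 2 of 23 higher, against 3.94% of all genes, and without mucosa 1 it was 11 of 23, against 9.69%. The CD4 T cell markers gave 4 of 12 higher and none lower, 1 and 0 without mixed barcodes, where Icos was the 1, and 2 and 0 without mucosa 3. Tissue residence and gut homing genes had 5 of 16 higher and none lower (2 and 1 without mixed barcodes, 2 and 0 without mucosa 3). Rgs2, a regulator of G protein signaling, was at 162 to 285 CPM against 42.8, 24.7 and 7.08 (log2 difference 3.17, SE 0.35), and the chemokine receptor Cxcr4 at 52.6 to 181 against 20.2, 24.7 and 3.54 (log2 difference 3.13, SE 0.61). Of chemokine and egress receptors 3 of 13 were higher and none lower, and 1 and 1 without mixed barcodes.

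Cytotoxic genes had 3 of 12 higher and none lower, the NK receptor genes Klrd1, Klrc1 and Klrk1, and none passed without mixed barcodes or without mucosa 3. Klrk1 did not pass with the mouse as a block either (adjusted p = 0.057). The granzyme gene Gzma varied more between tumors than between tissues, with 42.8 to 1790 CPM in tumors and 255, 0 and 319 in mucosa (edgeR adjusted p = 0.379). Interferon-stimulated genes had 4 of 21 higher and none lower, none without mixed barcodes, and 1 of 23 without mucosa 3. Glycolysis and hypoxia genes had 7 of 22 higher and none lower, 5 and 0 without mixed barcodes, and 1 and 0 without mucosa 3. Hif1a, the hypoxia-inducible factor, was at 491 to 834 CPM in tumors against 280, 272 and 131 (log2 difference 1.76, SE 0.25, edgeR adjusted p = 3.88e-05). Of 20 cell cycle genes 1, the chromatin gene Hmgb2, was higher and none lower, 3 and 0 without mixed barcodes, and 5 and 0 without mucosa 3.

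The immediate early and stress list summed to 9890 to 13500 CPM in tumors and 6570 to 7490 in mucosa. Fosl2, an AP-1 subunit, was at 98.4 to 299 CPM against 20.2, 24.7 and 7.08 (log2 difference 3.75, SE 0.43). Nfkbia and Junb were higher by 2 and 1.8 on the log2 scale, and all 3 passed without mixed barcodes. Their part in the other results was not tested.

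Markers of other cells moved with the tissue in the same sums. Neutrophil genes were higher at 7 of 10 (124 to 8720 CPM summed in tumors, 7.08 to 24.7 in mucosa), monocyte and macrophage genes at 5 of 13 (66.1 to 5250 against 27.7 to 103), and none was lower. Epithelial genes were lower at 11 of 16 and higher at none. With the mouse as a block the neutrophil list had 4 genes higher and the epithelial list 7 lower. NK and innate lymphoid genes, which include Areg and Il7r, were higher at 5 of 11, and the B and plasma cell list at 1 of 5. Without mucosa 3 the counts were 2 of 11 neutrophil and 0 of 13 macrophage genes higher, 5 of 16 epithelial genes lower and 2 of 12 NK and innate genes higher, and without mucosa 1 they were 3, 2, 7 and 2. Of CD8 and gamma delta genes 1 was higher (Klrc2) and 1 lower (Cd160) of 4, no dendritic cell gene of 3 passed, and no mast cell or fibroblast gene had enough UMIs. Without mixed barcodes 5 of 13 epithelial genes were lower and 2 of 12 NK and innate genes higher, while no neutrophil gene of 4 and no macrophage gene of 9 that could then be tested passed. Leaving out those barcodes lowered this RNA but did not remove it: the neutrophil gene S100a8 was still at 31.1 to 164 CPM in tumors, and S100a9 at 37.5 to 287, with no UMI of either in mucosa. The fitted median log2 differences, set by mucosae at or near 0, were 7.8 and 7 for the neutrophil and macrophage lists with mixed barcodes and 7.6 and 6.06 without. The part of the RNA that remained in the other results was not tested.

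**Figure D3:**
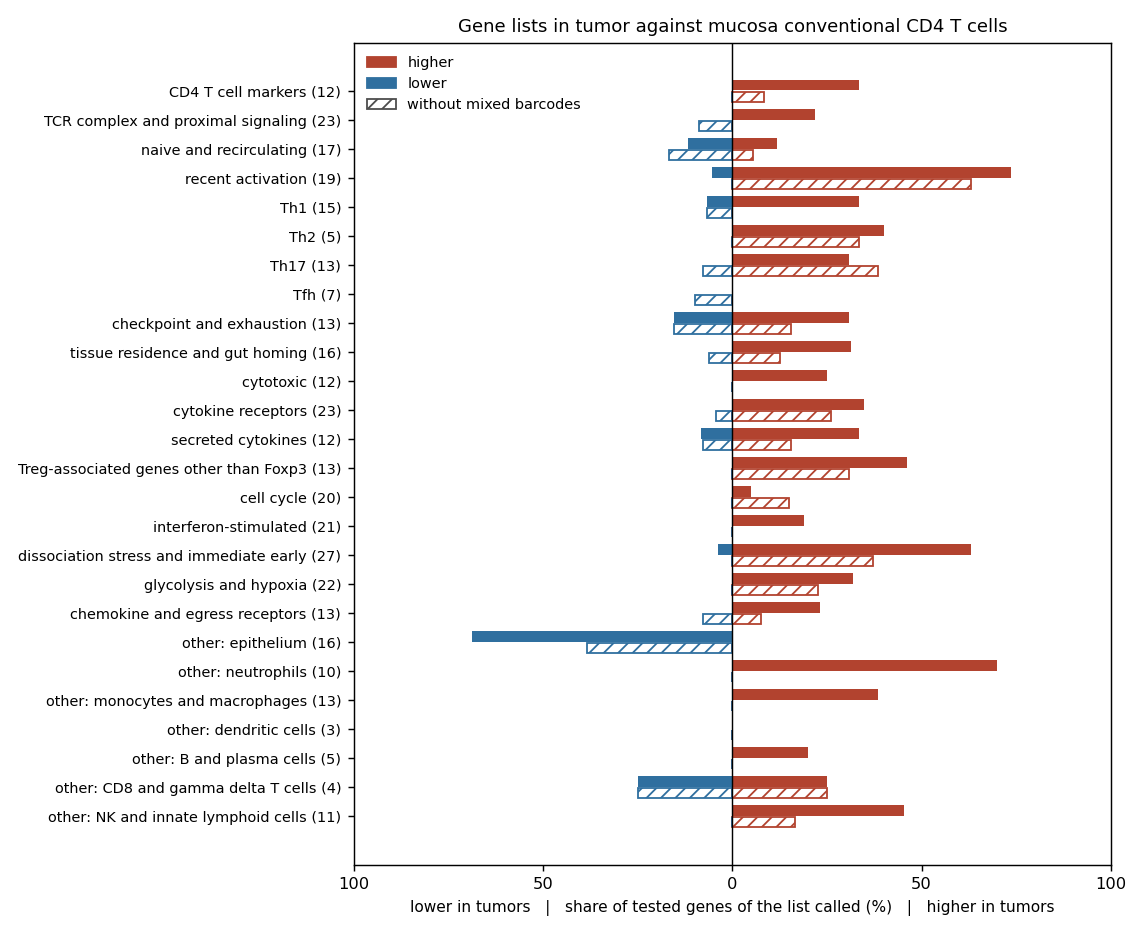
Share (%) of the tested genes of each list (number tested in brackets) called higher (red, right) or lower (blue, left) in tumor than in mucosa conventional CD4 T cells, filled with all cells and hatched without mixed barcodes. Recent activation has 14 of 19 genes higher, and 12 of 19 without mixed barcodes, and the neutrophil list has 7 of 10, and 0 of the 4 that could then be tested.

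The same question was put to shares of cells, with each cell thinned to 1000 UMIs so that depth was equal (1668 tumor and 145 mucosa cells). None of 24 state genes passed the exact permutation test within mice after adjustment, and 2 had an unadjusted p under 0.05. With 75 assignments a gene alone cannot go below an adjusted p of 0.32. Ctla4 had a UMI in 26.9%, 33.5% and 41.3% of cells at the lowest, median and highest tumor and in 13.6%, 20% and 9.09% in mucosa 1, 2 and 3. That was higher in 10 of 10 tumors than in their own mucosa, by 19.9 points (exact permutation p = 0.0133, adjusted 0.32). In epithelial barcodes of tumors, thinned alike, at most 0.838% had a Ctla4 UMI.

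Cxcr3, a chemokine receptor of Th1 cells, had a UMI in 1.77% to 9.62% of tumor cells and in 7.41%, 10% and 9.09% of mucosa cells, lower in 9 of 10 tumors than in their own mucosa (exact permutation p = 0.0267, adjusted 0.32). Icos, at 32.1% to 43.3% in tumors, overlapped with the mucosae at 16%, 40% and 25%. Ifng was found in 9.52% to 33.6% of tumor cells and in 11.1%, 15% and 18.2% of mucosa cells. Cxcr6, a receptor of resident T cells, was in 12.2% to 27.4% against 18.5%, 50% and 22.7%, where the 50% rests on 20 cells. The proliferation gene Mki67 was in 0 to 5.77% of tumor cells and in 5.62% to 11.6% of epithelial barcodes, a proliferating tissue, so no expression was read from it. The 0 came from tumor 3, where 0 of 63 cells allows a share of up to 4.76% of cells with a UMI at this depth, which does not bound the cells that express the gene. Unthinned, the median tumor had a Ctla4 UMI in 71.3% of cells and the mucosae in 34.6%, 25% and 20%.

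**Figure D4:**
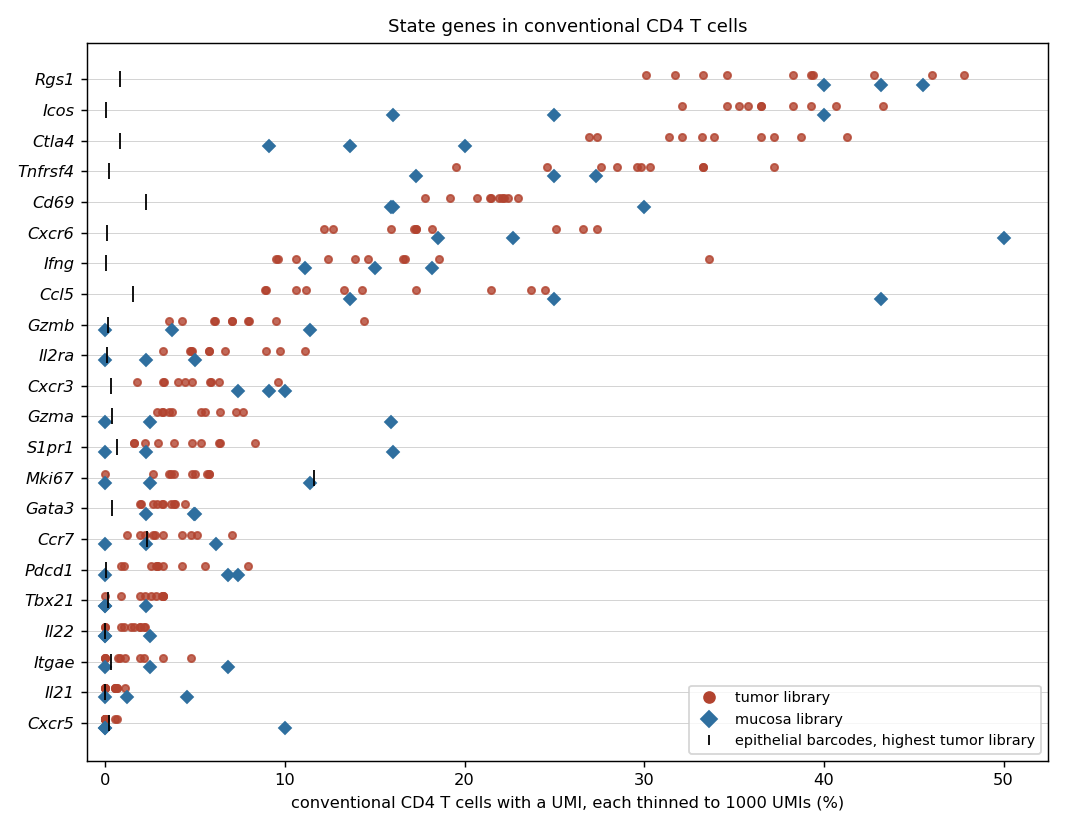
Share (%) of conventional CD4 T cells with a UMI of each state gene shown, each cell thinned to 1000 UMIs; red points are tumor libraries, blue diamonds mucosa libraries and black ticks the highest share among epithelial barcodes of a tumor library. For Ctla4 all 10 tumors lie at 26.9% or above and the 3 mucosae at 20% or below.

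Between tumors, the summed levels of effector genes ranged widely. Gzma spanned 42.8 CPM in tumor 3 to 1790 in tumor 8, and Ifng 152 CPM in tumor 3 to 1090 in tumor 1, while Icos stayed between 335 and 499 and Ctla4 between 323 and 608. The Gzma UMIs came from few cells: after thinning, 90 of 1668 tumor cells had one. That was 2.88% to 7.66% of cells per tumor, with 3.17% in tumor 3 and 7.29% in tumor 8. Tumor 3, with only 63 cells and no mixed barcode, had the highest Cd4 (420 CPM), Cd28 (276 CPM) and Il2ra (311 CPM). Cells with an Ifng UMI after thinning numbered 291 of 1668 in tumors. Of these 35.7% also had Cxcr6, against 17.3% of the others, and 9.97% had Gzma, against 4.43%. These shares pool cells of 10 libraries and are descriptions.

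Within tumors, the cells were set against CD4 T cells that met the same rule but had a Foxp3 UMI. In all 218 tumor and 10 mucosa barcodes were of that kind, and 7 tumors (1, 3 and 6 to 10) had at least 20. Conventional cells were higher at 263 of 2881 genes (9.13%) and lower at 243 (8.43%), or 17.6% in either direction, with the library as a block. Without mixed barcodes 305 (10.9%) and 259 (9.28%) passed.

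Bcl2, the survival factor, was at 78.9 to 167 CPM in conventional and 0 to 29.5 in Foxp3-positive cells, higher in 7 of 7 tumors (log2 difference 2.95, SE 0.37, edgeR adjusted p = 1.25e-05). Tmem176a was at 350 to 714 against 22.2 to 148 CPM and Tnfsf11 at 142 to 276 against 5.55 to 57.8, each higher in 7 of 7 tumors. The nicotinamide riboside kinase gene Nmrk1 and the NK receptor gene Klrd1 were higher by 2.73 (SE 0.53) and 2.50 (SE 0.61) on the log2 scale, and Klrd1 lost its call without tumor 3, 6, 7, 8 or 9 (log2 difference 2.24 to 2.52, adjusted p = 0.0534 to 0.0917). Ctsw, a cathepsin of cytotoxic cells, was at 117 to 422 CPM against 7.03 to 110. With it 5 of 8 cytotoxic genes were higher and none lower, with or without mixed barcodes, among them Nkg7 at a log2 difference of 1.94 (SE 0.44), which did not pass without tumor 1, 3, 6, 8 or 9 (log2 difference 1.81 to 2.02, adjusted p = 0.06 to 0.0797).

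Lower in conventional cells was Klrg1, a receptor of effector T and regulatory cells, at 2.88 to 35 CPM against 66.4 to 270 (log2 difference -3.74, SE 0.40, edgeR adjusted p = 6.54e-05). Itgae, the αE integrin that binds E-cadherin, was at 3.29 to 27.2 CPM against 72.2 to 195, and Rapsn at 4.35 to 19.4 against 96 to 162. Bmyc, Ikzf2 and Izumo1r (folate receptor 4) had log2 differences of -2.81, -2.80 and -2.26, and all 6 genes were lower in 7 of 7 tumors. Ikzf2 and Izumo1r each lost their call without tumor 1, 6, 7, 9 or 10 (adjusted p = 0.0502 to 0.0807), at log2 differences of -2.88 to -2.76 and -2.44 to -2.02. Of the regulatory-associated list 9 of 9 genes tested were lower (10 of 10 without mixed barcodes), such as Tnfrsf9 at 189 to 377 against 921 to 1710 CPM and Tnfrsf4 at 368 to 531 against 1280 to 2830. Ctla4, higher in tumors than mucosa above, was at 323 to 608 CPM here against 871 to 1330. Of interferon-stimulated genes 8 of 14 were lower and none higher (10 of 14 and none without mixed barcodes), and Areg had a log2 difference of -2.18 (SE 0.30).

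Set against CD8 αβ T cells (Cd8a and Cd8b1 present, Cd4 absent) in the 8 tumors with 20 of each (not 3 and 5), conventional CD4 T cells were higher at 454 of 5950 genes (7.63%) and lower at 470 (7.9%), or 15.5% in either direction. Without mixed barcodes the counts were 583 (11.1%) and 569 (10.8%) of 5250, and without the library block 263 and 234. Of Th17-associated genes 8 of 9 were higher and none lower, with or without mixed barcodes. Il17re, a subunit of the IL-17C receptor (chr6:113458484-113470758), was at 16.4 to 24.4 CPM against 0 to 1.8, a pooled ratio of 81.8 with a wide 95% counting interval of 14.5 to 3250, as CD8 T cells had 1 UMI. Maf, a transcription factor of IL-10 and IL-17 programs (chr8:115682942-115707794), was at 155 to 348 CPM against 0 to 19.4 (log2 difference 4.74, SE 0.31, edgeR adjusted p = 6.58e-06).

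Tnfrsf4 was at 346 to 541 CPM against 18.3 to 32.3 in CD8 T cells, a log2 difference of 3.95 (SE 0.13, edgeR adjusted p = 6.25e-16), higher in 8 of 8 tumors. Tmem176a, Plcb4 and Podnl1 were higher by 3.89, 3.78 and 3.68 on the log2 scale. Secreted cytokines were higher at 5 of 7, with Tnfsf11 at 142 to 196 against 14.9 to 23.5 CPM and Areg at 274 to 899 against 0 to 219. Of regulatory-associated genes 6 of 7 were higher, and of glycolysis and hypoxia genes 9 of 22 (15 of 20 without mixed barcodes). No gene of those 3 lists was lower, and the first 2 had the same counts without mixed barcodes. Hif1a was higher by 1.52 (SE 0.12).

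Cytotoxic genes were lower at 9 of 13 and higher at none (9 of 12 and none without mixed barcodes). The chemokine gene Ccl5 was at 224 to 1270 CPM against 2620 to 7110 (log2 difference -3.47, SE 0.18, edgeR adjusted p = 5.79e-07) and the pore-forming Prf1 at 1.11 to 7.35 against 17.4 to 55.9. Bend4, Cd160 and Cd7 had log2 differences of -4.43, -4.21 and -3.94, Itgae of -3.45 and Ly6c2 of -3.03, each lower in 8 of 8 tumors. Of naive and recirculating genes 9 of 15 were lower and 1, Il7r, higher (10 of 14 and 1 without mixed barcodes). Tcf7 had a log2 difference of -1.18 (SE 0.13, edgeR adjusted p = 1.66e-06) and Lef1 of -0.69 (SE 0.16, edgeR adjusted p = 0.00453).

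**Figure D5:**
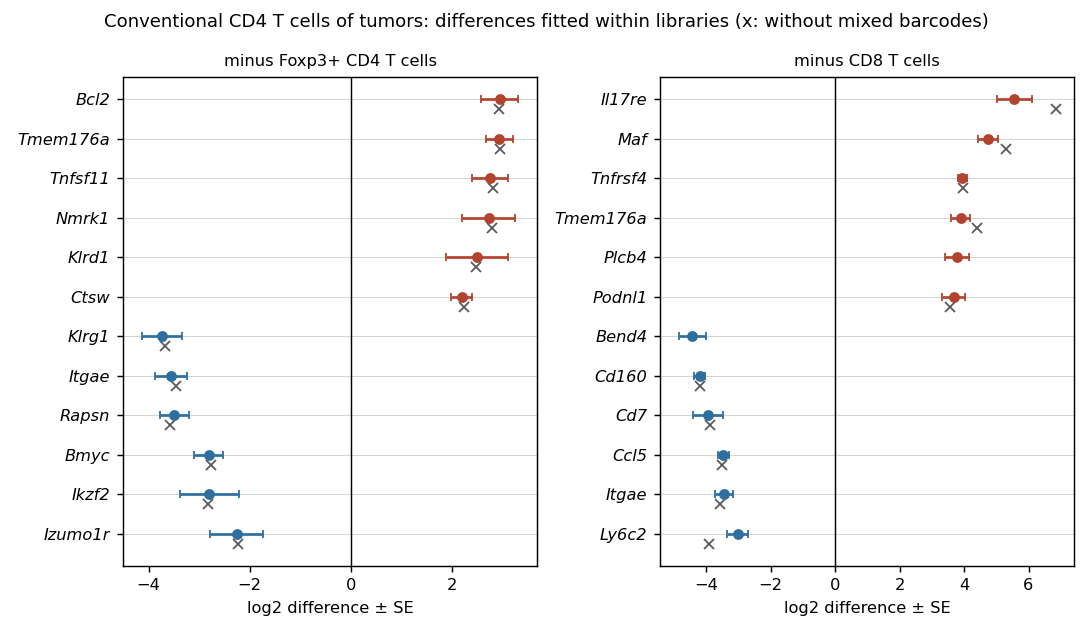
Log2 differences (± SE) of conventional CD4 T cells from Foxp3-positive CD4 T cells (left) and CD8 T cells (right). Each side shows 12 genes, equally many per direction, with the largest differences among those within the limits set for named genes. These are called genes at 20 CPM or more in the higher group and at least 2 times the level of barcodes that were not T cells. They also met the limits on libraries and on genes left out that are given with the processing. Genes outside these limits, such as Tmem176b on the left, can differ more. Crosses are the values without mixed barcodes. Every cross lies on the same side of 0 as its point, and Bend4 has none because it was not tested without those barcodes.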

How the data were processed

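Single-cell 3' RNA-seq was measured in 13 libraries. The deposited matrices hold raw UMI counts per gene and barcode over 32285 genes. Per the submitters' processing notes, the authors made them with Cell Ranger 6.0.0 on mm10. Barcodes were filtered and the cells selected as the report states. UMI counts were summed per library and tested with edgeR 4.0.16 (quasi-likelihood, TMM, filterByExpr, at least 20 cells per library) in R 4.3.3, with Benjamini-Hochberg adjustment over all genes tested. DESeq2 1.42.0 was an alternative. Fits within tumors had the library as a block. Shares were tested by a two-sided exact permutation of which library of each mouse was the mucosa. The fits were also run on simulated counts with known changes. Those counts held no difference between mice and no RNA of other cells that differed with tissue, so nothing about either is read from them.

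Tumors and mucosa were paired by animal code, and replicate numbers pair nothing. Over 7963 genes, the deviations of a mouse's tumors and mucosa from their group means correlated little (mouse A, r = 0.0369; mouse B, -0.0112; mouse C, 0.0547). The main fit between tissues had no term for the mouse. Libraries of 1 mouse are not separate animals, so its p-values measure the spread between tumors of 3 mice and between the 3 mucosae.

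The cells, gene lists and tests were chosen with earlier results of these data known, and 402 list genes in 28 lists were used, 6 of them absent under their names from the files. Named genes were, per list, up to 4 members (called ones by smallest p, then by highest level), and in the tumor and mucosa comparison the 10 largest changes per direction. Those were taken among called genes with no overlap of libraries, at least 20 CPM in the higher group and at least 2 times the level of barcodes that are not T cells. Within tumors it was 6 per direction, with all but at most 1 library on the same side. Left out of these orders were the genes of the rule, Cd8b1, and ribosomal, mitochondrial, immunoglobulin and predicted genes (Gm and Rik names). Other genes in the text (the lineage factors and the most variable effector genes) were chosen after their values were seen. Counting intervals are exact at 95% and, like the limit of 3 counts for a share of 0, cover counting error only. Doublets were not removed; a doublet score would take 164 tumor and 9 mucosa cells, and was an alternative. Gene positions are whole genes of GENCODE M21 (GRCm38, the build of mm10). Reads fitting several paralogs, and antisense genes, were not resolved further. A further comparison within the cells, fixed at the outset, and some genes are not reported here.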

Additional observations from a re-analysis of the deposited data

Results flagged for a closer look

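Of 52 sets of 10 tumor values tested, 3 had a tumor far from the other 9, where chance alone flags about 1 in 20. The share of conventional CD4 T cells with an Ifng UMI, thinned to 1000 UMIs, was 33.6% in tumor 1, against at most 18.6% in the other tumors. Cd4 was at 420 CPM in tumor 3, against at most 325 in the others, and Cd28 at 276 CPM in tumor 3, against at most 219. Without mixed barcodes the next highest tumors were closer, at 352 CPM of Cd4 and 258 of Cd28. Tumor 3 had the fewest of these cells, 63, and none with 1% or more of UMIs from epithelial, neutrophil or macrophage genes. Cd4 was used to select the cells, so its level there is a description.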

How the results depend on the processing

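The share of T cells kept its direction under every alternative. It was 8.79 points higher in tumors with at least 2 Cd4 UMIs and 9.24 when thinned to 1000 UMIs. It was 18.2 to 22.3 points higher in tumors without a mouse and 19.1 to 21.4 without a tumor, where the adjusted p of the exact permutation test was 0.05 to 0.2. Each unadjusted p of that test (0.0167 to 0.0667) was the smallest its fewer assignments allow, so the lost calls say nothing about the size of the difference. With a replicate block for the mouse, 793 genes were higher and 586 lower in tumors, and in 3 sums per tissue 614 and 502. Leaving out a library gave 329 to 840 genes higher and 220 to 792 lower, the lowest both without mucosa 3. The counts of genes higher and lower in the main fit were 815 and 693 of 7963 tested. Without doublet scores they were 232 and 112 of 7264, and with cells thinned to 1000 UMIs 154 and 58 of 2854. Among genes enriched in T cells they were 258 and 127 of only 1957 tested, so that count is not a loss of share for the genes higher in tumors. Removing doublet scores also took mucosa 2 out of the fit, which alone gave 792 and 792. The counts higher and lower were 325 and 179 without mixed barcodes, 375 and 187 with mucosa 2 kept at 15 cells or more, and 228 and 99 without mixed barcodes and doublet scores. Klf2 ran from -1.96 to 0.15 without 1 library.

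Against Foxp3-positive cells, no filter on low counts gave 639 of 16618 genes higher, where the main fit had 263 of 2881. DESeq2 gave 141 of 11896 fitted genes lower, where the main fit had 243 of 2881. Against CD8 T cells, the main fit had 454 genes higher and 470 lower of 5950. Without the replicate block 263 were higher and 234 lower of 5950. No filter gave 850 of 17402 higher, and DESeq2 241 of 12675 fitted genes lower. The cause of these changes was not tested. Of the values of named genes over all alternatives, 247 lost their call with the same direction in the comparison of tissues. Against Foxp3-positive cells 90 did, and against CD8 T cells 25. In the same order 19, 6 and 1 gained a call, and 2032, 720 and 860 were counted as unchanged. In the comparison of tissues 1 more was reversed. The numbers of values differ between the comparisons, so the counts are not to be set against each other alone.

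Mucosa 2, with 20 cells, limits what can be seen of genes at low levels.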
